A study of Mus musculus with 4 samples.

Results

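Collagen genes were taken as the autosomal protein-coding mouse genes whose symbol is Col, a number, the letter a and a number. The rule gave 42 of the 20665 autosomal protein-coding genes of the RefSeq gene table. Open chromatin at them was read as the merged regions inside a gene, overlapping it or at most 10 kb away, which came to 167 of 60713 autosomal regions. Of the 42 genes, 11 code for fibrillar collagens, 6 for basement membrane collagens and 25 for other types. Chromatin had been profiled by ATAC-seq, an assay in which a transposase cuts and tags accessible DNA, in lung tumours of 4 mice aged 55 weeks and labelled with the strain C57B6J. The KrasLA1 group held 2 mice of genotype KrasLA1/+, and the KrasLA1;Dicer1S2D group held 2 mice of genotype KrasLA1/+;Dicer1S2D/+, so every animal carried the KrasLA1 allele and no tumour-free lung was used here. KrasLA1 is an oncogenic allele that stays silent until a chance recombination switches it on in scattered cells, and Dicer1S2D alters DICER1, the enzyme that cuts microRNA precursors, to imitate its phosphorylated state. No Cre driver or restriction to a cell type is named in the labels. Each group paired a female, replicate 1, with a male, replicate 2, and sex and replicate number therefore cannot be told apart.

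Collagens are secreted proteins whose chains wind around each other into helices and give tissues their mechanical frame. Fibrillar collagens such as types I, III and V form the fibrils of the lung's connective tissue and of tumour stroma and are made mainly by fibroblasts, whereas type IV collagen forms the sheet-like network of the basement membrane under epithelium and around vessels, with types XV and XVIII attached to it. The remaining types decorate fibrils, bridge matrix networks, anchor epithelium or sit in cell membranes.

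The sequences of promoters that mark the range of the results are shown first, from RefSeq on GRCm38.p6, each 5′ to 3′ on the gene's own strand. Capitals mark every match, on either strand, to the letters TATAAA of a core promoter box, to the letters CCAAT, and to the letters GGGCGG of a GC box. A match of the second motif on the other strand reads ATTGG as printed, and one of the third motif reads CCGCCC. A match is a run of letters and not a measured binding site. The 250 bases before the start site are printed for Col18a1, whose start site lay in a peak in all 4 libraries, for Col6a1 and Col8a2, called in some libraries only, and for Col1a2 and Col3a1, whose genes held no region at all. The Col18a1 stretch is chr10:77166531-77166780 on the minus strand, that of Col6a1 chr10:76726045-76726294 on the minus strand, that of Col8a2 chr4:126286544-126286793 on the plus strand, that of Col1a2 chr6:4505368-4505617 on the plus strand and that of Col3a1 chr1:45311288-45311537 on the plus strand.
Col18a1: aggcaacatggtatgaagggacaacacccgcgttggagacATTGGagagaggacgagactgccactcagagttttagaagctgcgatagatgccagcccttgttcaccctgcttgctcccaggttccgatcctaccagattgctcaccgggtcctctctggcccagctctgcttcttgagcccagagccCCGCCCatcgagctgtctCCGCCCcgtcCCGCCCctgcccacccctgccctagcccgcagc
Col6a1: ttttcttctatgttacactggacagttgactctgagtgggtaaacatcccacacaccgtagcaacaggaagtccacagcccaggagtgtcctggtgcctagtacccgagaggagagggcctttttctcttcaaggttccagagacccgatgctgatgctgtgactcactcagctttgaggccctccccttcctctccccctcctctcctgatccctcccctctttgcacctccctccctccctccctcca
Col8a2: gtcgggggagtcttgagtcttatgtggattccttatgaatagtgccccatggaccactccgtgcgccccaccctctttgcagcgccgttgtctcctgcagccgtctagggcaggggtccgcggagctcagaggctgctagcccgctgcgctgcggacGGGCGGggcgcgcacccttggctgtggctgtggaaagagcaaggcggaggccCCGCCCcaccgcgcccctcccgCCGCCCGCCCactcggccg
Col1a2: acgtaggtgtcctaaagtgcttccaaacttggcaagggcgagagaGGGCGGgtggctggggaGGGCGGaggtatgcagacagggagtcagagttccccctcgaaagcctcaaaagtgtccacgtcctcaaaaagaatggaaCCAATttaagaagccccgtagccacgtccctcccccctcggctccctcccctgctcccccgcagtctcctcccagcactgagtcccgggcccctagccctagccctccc
Col3a1: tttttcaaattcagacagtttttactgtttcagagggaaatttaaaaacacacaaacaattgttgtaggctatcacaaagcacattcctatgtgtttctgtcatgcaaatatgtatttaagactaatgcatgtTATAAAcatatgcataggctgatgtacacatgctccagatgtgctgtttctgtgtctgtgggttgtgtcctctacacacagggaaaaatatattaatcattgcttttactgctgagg
Col18a1 had 1 CCAAT and 3 GGGCGG matches, Col8a2 had 4 GGGCGG matches of which 1 pair overlapped, and Col6a1 had none of the 3 motifs. Col1a2 had 1 CCAAT and 2 GGGCGG matches, and Col3a1 had 1 TATAAA match that began 117 bases before the start site.

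At Col4a1, Col4a2, Col5a1 and Col27a1 the bases before the start site lie within an annotated gene, so 30-base stretches around the matches are shown. They are the promoters of the type IV pair that was open in every library and of 2 of the 3 fibrillar genes whose start-site calls differed between libraries. The Col4a1 site is chr8:11312954-11312983 on the minus strand, the Col4a2 sites are chr8:11312601-11312630 and chr8:11312753-11312782 on the plus strand, the Col5a1 sites are chr2:27886208-27886237 and chr2:27886340-27886369 on the plus strand, and the Col27a1 site is chr4:63215315-63215344 on the plus strand.
Col4a1: tgcttgcccgggATTGGcgagccaaggggc
Col4a2, upstream site: gtggcgcgcccgGGGCGGcaggggaccagc
Col4a2, downstream site: cgcgCCGCCCgaggagctccCCAATttgtt
Col5a1, upstream site: ccacgtccgctcCCGCCCcgggccagcccc
Col5a1, downstream site: tgcgggcgttggGGGCGGtggggggtgggg
Col27a1: gttggcagcagaGGGCGGcccggcgcgggg
The Col4a2 promoter held a CCAAT match 32 bases before its start site with a GC box match 48 bases before it. The single CCAAT match of Col4a1 began 145 bases before its start site, and the single GC box match of Col27a1 began 85 bases before its own.

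The libraries had 41621 and 44654 peaks in KrasLA1 and 50282 and 34767 in KrasLA1;Dicer1S2D, replicates 1 and 2 in that order, so the extremes of depth of calling both fell in the KrasLA1;Dicer1S2D group. A peak is either called or not, and no read numbers were used here, so a region with no peak can still be open below the threshold. Counts at markers of cell types stand beside those of all autosomal protein-coding genes, of which 23.1% had no region. Of all genes with a listed start site, 50.2% had it in a peak in all 4 libraries and 42.4% in none. The lists of markers are small and were not tested against all genes. All 7 lung epithelium markers had a region, and the start sites of Krt8, Krt18, Nkx2-1 and Sftpb lay in a peak in all 4 libraries, while that of Epcam did so in 2. Of 8 fibroblast and smooth muscle markers, Thy1, Postn and Des had no region, the other 5 had 13 regions, and none of the 4 listed start sites lay in a peak. Those 13 regions were called 8 and 5 times in KrasLA1 and 6 and 3 times in KrasLA1;Dicer1S2D. In these bulk samples fewer cells of a type and less open chromatin per cell cannot be told apart.

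Collagen genes as a whole showed no difference between genotypes beyond the spread of the mice. Of the 167 regions, 98 and 105 were called in the KrasLA1 libraries and 125 and 72 in the KrasLA1;Dicer1S2D libraries. The KrasLA1 values lay between the 2 KrasLA1;Dicer1S2D values. The means were 101.5 ± 4.95 and 98.5 ± 37.5 (SD, n = 2 each), and the difference of -3 gave p = 1 in an exact two-sided permutation test, whose smallest possible p with 2 against 2 is 0.333. As a share of all autosomal regions called in the library, collagen regions made up 0.245% and 0.241% in KrasLA1 and 0.261% and 0.216% in KrasLA1;Dicer1S2D (difference -0.00400 percentage points, exact permutation p = 1). Peaks covered 48.5 and 62.7 kb of the collagen loci in KrasLA1 and 59.1 and 39.1 kb in KrasLA1;Dicer1S2D. That difference of group means was -6.51 kb (exact permutation p = 0.667). Adjusted after Benjamini and Hochberg over the 5 permutation tests on collagen genes that are reported here, every p was 1. Permutation tests on the counts of each class and of its start sites gave an unadjusted exact p of 0.667 or 1.

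No collagen region was called in both KrasLA1;Dicer1S2D libraries and in neither KrasLA1 library, a pattern called gained here and found at 0.596% of all autosomal regions. With regions taken as independent, the count of 0 of 167 allows a share of up to 1.80% (3 of 167). Regions of the same genes and mice are not independent, so this limit covers counting error only. The reverse pattern, called lost, was found at 2 collagen regions (1.20%), beside 1.42% of all autosomal regions, so the share was near the background. Per gene, 0 of the 33 collagen genes with a region had a gained region (1.78% of all genes with a region) and 2 had a lost region (4.87% of all such genes). With each library left out in turn, so that 1 library stood for its group, 1 to 30 collagen regions were gained and 3 to 19 lost. The 0.596% and 1.42% hold for all 4 libraries only. No share of all autosomal regions is given with a library left out, so these counts have no background here.

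**Figure D1:**
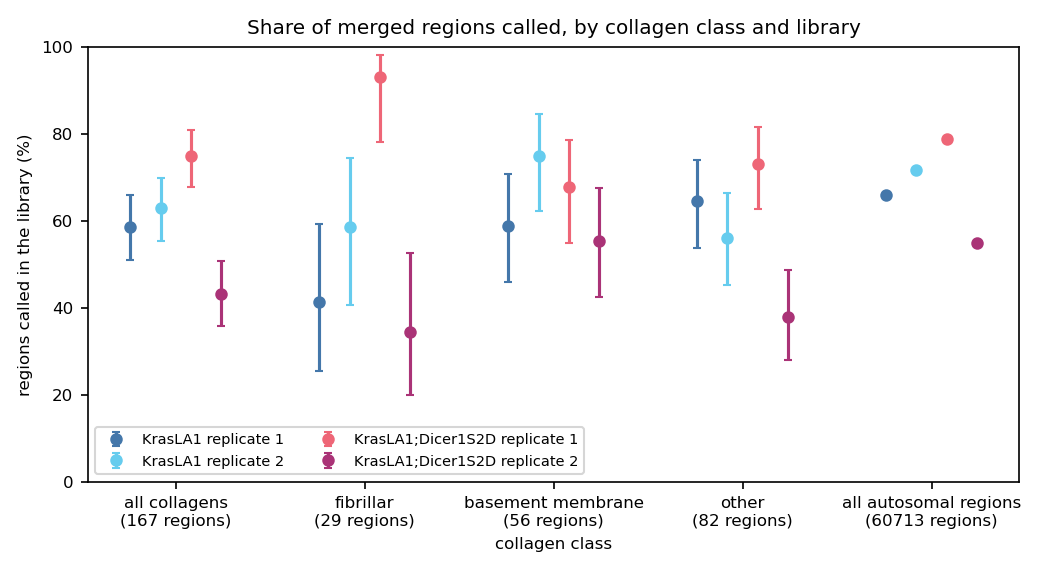
Share of merged regions called in each library (%, y axis) for all collagens, the 3 classes and all autosomal regions (x axis). Points are libraries and bars are 95% Wilson intervals, which cover counting error only. The fibrillar shares range from 34.5% to 93.1%, the widest range of the classes, with both extremes in KrasLA1;Dicer1S2D libraries.

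A peak was present in every library at 55 of the 167 regions (32.9%), beside 43.5% of all autosomal regions. A further 63 (37.7%) had a peak in a single library, beside 27.7% of all. No test was made on these shares. With 50 kb on each side of the gene in place of 10 kb, 42.2% of collagen regions had a peak in every library. The median collagen gene was long, 110 kb against 17.5 kb for all autosomal protein-coding genes, and most of its regions lay inside it: 127 of the 167 were in a gene body away from the start site, 13 at a start site, 1 at another gene end and 26 in the flanks. Of the 127 gene-body regions 35 (27.6%) were called in all 4 libraries, and of the 13 start-site regions 7 were (53.8%). Per Mb of gene there were 34.8 regions at collagens and 59.0 at all genes, with a region of several genes counted at each. With each region counted once the values were 33.9 and 45.2. The counts include regions in the 10 kb flanks, but the length is that of the genes alone. This raises the value more where genes are short, so collagens and all genes cannot be compared directly on it.

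Basement membrane collagens had the highest density of regions of the 3 classes, with 80.6 regions per Mb of gene against 27.7 for fibrillar and 26.2 for other types. The 80.6 counts the 4 regions shared by neighbouring type IV genes at both, and with each region counted once it was 75.2. Here too regions in the flanks were counted over the length of the genes alone. The 6 genes had 56 regions, of which 33 and 42 were called in KrasLA1 and 38 and 31 in KrasLA1;Dicer1S2D, and 24 (42.9%) were called in every library. All 6 genes had at least 1 region. These are counts over genes of these libraries, and no test between the classes was made on them.

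Col4a1 and Col4a2, which code for the chains of the type IV network found in nearly all basement membranes, stand head to head on chromosome 8. Their start sites are 21 bp apart, and both lay within 1 wide region, chr8:11311656-11314093 (2438 bp), that held a peak in all 4 libraries. The peak there was 2120 and 2367 bp wide in KrasLA1 and 1941 and 1609 bp wide in KrasLA1;Dicer1S2D. Both KrasLA1 peaks were the wider ones, but the centred log2 difference of -0.18 had a standard error of 0.20 and an adjusted p of 1 in limma. Inside Col4a2 a further 8 regions were open in all 4 libraries, centred 18765 to 80435 bp after the start site. Of the 17 regions of Col4a2, 13 and 14 were called in KrasLA1 and 11 and 10 in KrasLA1;Dicer1S2D, so the groups did not overlap; 3.43% of all genes with a region had fewer calls in both KrasLA1;Dicer1S2D libraries in this way. Col4a1 had 8 regions, of which 3 and 8 were called in KrasLA1 and 4 and 5 in KrasLA1;Dicer1S2D, with the groups overlapping.

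The lost region of Col4a1 was a small one, chr8:11215356-11215546 (191 bp), in the gene body and centred 97375 bp from the start site. It held peaks of 168 and 189 bp in the KrasLA1 libraries and none in the KrasLA1;Dicer1S2D libraries. Among the widest 75% of peaks of each library it was no longer called lost, nor with equal numbers of the widest peaks. The file holds no score that could rank this peak against others.

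Col4a3 and Col4a4, chains of the type IV network of kidney glomeruli and lung alveoli, overlap by 114 bp on chromosome 1 and shared the region chr1:82586444-82587578 (1135 bp) at the Col4a4 start site and the facing end of Col4a3. This region held a peak in all 4 libraries, 891 and 1135 bp wide in KrasLA1 and 810 and 966 bp wide in KrasLA1;Dicer1S2D. Col4a3 had 6 and 7 of its 8 regions called in KrasLA1 and 6 and 6 in KrasLA1;Dicer1S2D. Col4a4 had 2 and 3 of 4 called in each group.

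Col18a1, the source of the antiangiogenic fragment endostatin, had 9 regions. Of these 7 and 9 were called in KrasLA1 and 7 and 7 in KrasLA1;Dicer1S2D, and 7 were open in every library, among them both listed start sites. Col15a1, the related type XV gene, varied widely between libraries: of 14 regions, 5 and 5 were called in KrasLA1, 11 in KrasLA1;Dicer1S2D replicate 1 and 3 in replicate 2. Only 2 of its 14 regions were called in every library. Its start site lay in no peak, and the region centred 632 bp downstream was called in KrasLA1;Dicer1S2D replicate 1 only.

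**Figure D2:**
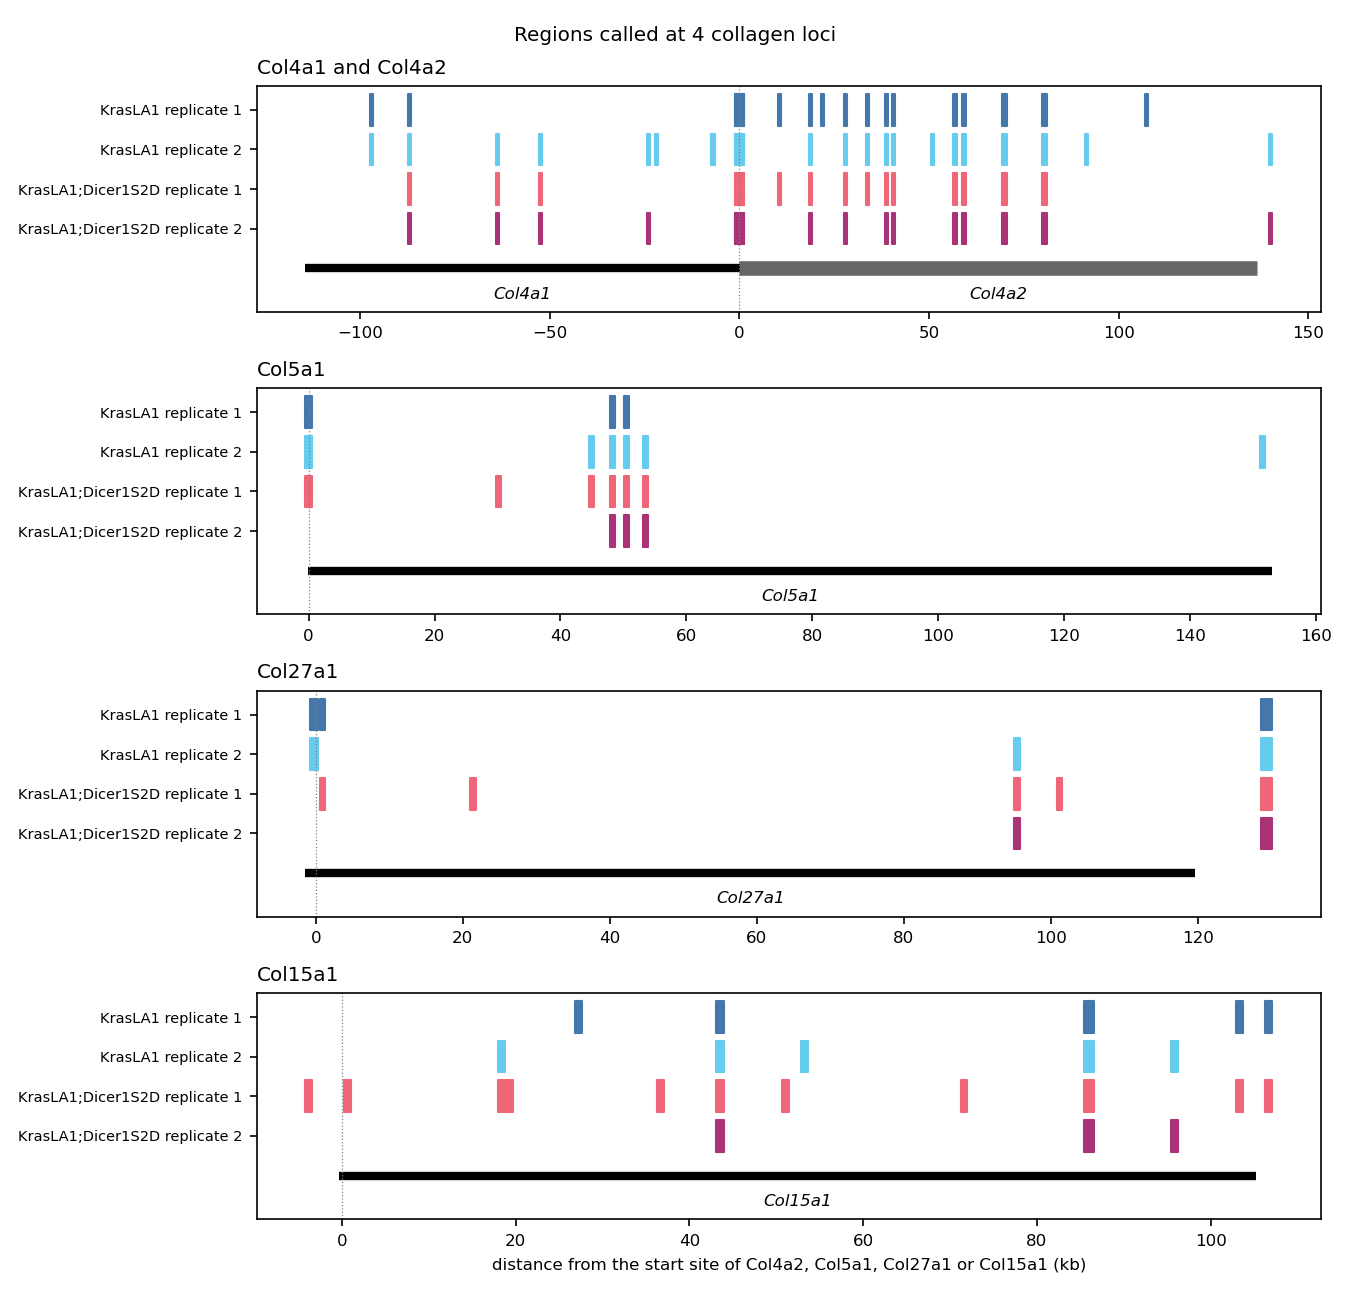
Regions called in each library at Col4a1 with Col4a2, Col5a1, Col27a1 and Col15a1. The x axis is the distance from the start site (kb), each coloured bar is a merged region in which the library had a peak (regions under 0.8 kb are drawn 0.8 kb wide), and black or grey lines are the genes. The type IV promoter is called in all 4 libraries, the Col5a1 start site in 3 and the Col27a1 start site in the 2 KrasLA1 libraries.

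Fibrillar collagens had fewer regions, and 1 library called nearly all of them. Their 11 genes had 29 regions, of which 12 and 17 were called in KrasLA1 and 27 and 10 in KrasLA1;Dicer1S2D, that is 41.4%, 58.6%, 93.1% and 34.5%. The Wilson intervals were 25.5% to 59.3%, 40.7% to 74.5%, 78.0% to 98.1% and 19.9% to 52.7% in the same order. Of the 29 regions, 11 (37.9%) were called in KrasLA1;Dicer1S2D replicate 1 alone, a pattern held by 11.8% of all autosomal regions, and 8 (27.6%) were called in all 4 libraries. With that library left out, 44.4% of the fibrillar regions of the others were called in each of them.

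The contrast between the classes was taken within each library as the fibrillar share minus the basement membrane share. It was -17.5 and -16.4 percentage points in KrasLA1 and 25.2 and -20.9 in KrasLA1;Dicer1S2D. The 3 values below 0 lay close together and the fourth, from replicate 1, stood apart. The difference between genotypes of 19.2 points had an exact permutation p of 1 (n = 2 each), and without KrasLA1;Dicer1S2D replicate 1, with the regions merged again, it was -12 points. In that library 78.8% of all autosomal regions were called, the highest share of the 4. With equal numbers of the widest peaks the difference between genotypes was 10.6 points, and with the widest 75% of peaks 9.52 points. With 50 kb on each side of the gene it was 5.14 points, and with peaks up to 500 bases apart merged 22.4 points. The part of the greater number of peaks of KrasLA1;Dicer1S2D replicate 1 in its fibrillar value was not tested.

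The genes of the major fibrillar collagens, types I and III, had few regions or none. Col1a2 and Col3a1, which code for a chain of type I and for type III collagen, had no region in any library, and neither had Col5a2. Col1a1, which codes for the other chain of type I, had 4 regions, of which 2 and 3 were called in KrasLA1 and 4 and 2 in KrasLA1;Dicer1S2D. Those called in all 4 libraries were chr11:94936809-94937829 (1021 bp), inside the gene, and chr11:94957890-94958645 (756 bp), 4848 bp outside it. The first held peaks of 511 and 918 bp in KrasLA1 and 887 and 536 bp in KrasLA1;Dicer1S2D. Neither end of Col1a1, chr11:94936224 or chr11:94953042, lay in a peak, with each end read as a single base. The first of these regions began close to the lower end, at 94936809, so a peak was present near that end in all 4 libraries.

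Col5a1, a chain of the type V collagen that starts fibrils, had the most regions of the class. Of its 7, 3 and 6 were called in KrasLA1 and 6 and 3 in KrasLA1;Dicer1S2D. Its start-site region chr2:27885909-27886966 (1058 bp) was called in 3 libraries and not in KrasLA1;Dicer1S2D replicate 2, and 2 regions centred 48082 and 50451 bp into the gene were called in all 4. The start site of Col5a3, a related chain, lay in a peak in KrasLA1 replicate 2 and KrasLA1;Dicer1S2D replicate 1.

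Col27a1, a fibrillar collagen of cartilage and other tissues, was the other gene with a lost region, and there it was the start site. The region chr4:63214701-63215665 (965 bp) held peaks of 338 and 965 bp in KrasLA1 and none in KrasLA1;Dicer1S2D. A second region just downstream, chr4:63215939-63216644 (706 bp), was called in KrasLA1 replicate 1 and KrasLA1;Dicer1S2D replicate 1, so the promoter was not without a peak nearby in that library. With peaks up to 500 bases apart merged, the 2 regions became 1 and it was no longer lost. Over the 6 regions of the gene, 3 and 3 were called in KrasLA1 and 5 and 2 in KrasLA1;Dicer1S2D.

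The remaining fibrillar genes, several of them cartilage collagens, had few regions. Col2a1 had 4 regions, 1 and 1 called in KrasLA1 and 4 and 0 in KrasLA1;Dicer1S2D. All 3 regions of Col24a1 were called in KrasLA1;Dicer1S2D replicate 1 only, 1 of them centred 208 bp after its start site. Col11a1 had 1 of its 2 regions called in every library, and the only region of Col11a2, 6474 bp outside the gene, covers the start sites of Rxrb and Slc39a7.

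**Figure D3:**
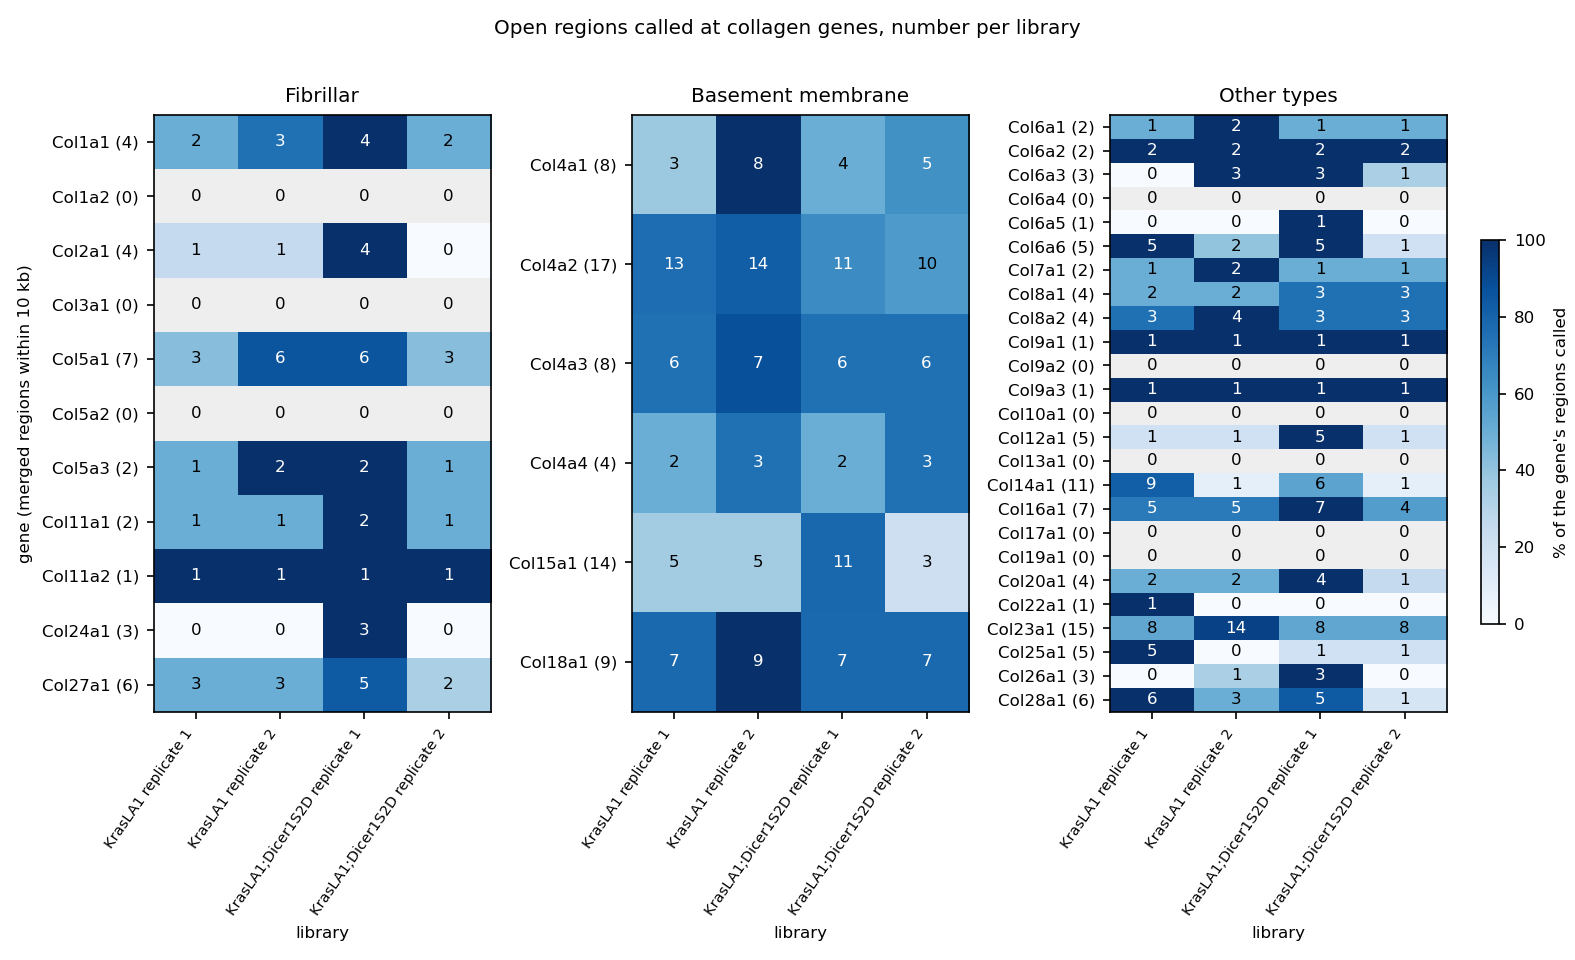
Number of regions called per library (columns) at each collagen gene (rows, with its total of merged regions in brackets), for the 3 classes. Colour gives the share of the gene's regions called (%), and grey rows have no region in any library, which holds for 9 of the 42 genes. Col4a2 is called 13, 14, 11 and 10 times, whereas Col14a1 is called 9, 1, 6 and 1 times.

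Among the other types, the 25 genes had 82 regions, of which 53 and 46 were called in KrasLA1 and 60 and 31 in KrasLA1;Dicer1S2D, and 23 (28.0%) were called in all 4. Type VI collagen forms beaded filaments between cells and fibrils. Both regions of Col6a2 were open in all 4 libraries. Col6a1 had 2 regions with 1 and 2 called in KrasLA1 and 1 and 1 in KrasLA1;Dicer1S2D, and Col6a3 had 3 regions with 0 and 3 called in KrasLA1 and 3 and 1 in KrasLA1;Dicer1S2D. Col6a4 had no region.

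Col23a1, a collagen anchored in the cell membrane, had 15 regions, the most of these types. In KrasLA1 8 and 14 were called and in KrasLA1;Dicer1S2D 8 and 8, with 6 open in all 4 libraries, among them the start site. Col14a1, which binds fibrils, had 11 regions with 9 and 1 called in KrasLA1 and 6 and 1 in KrasLA1;Dicer1S2D. Its high values were those of the 2 females and its low values those of the 2 males, within both genotypes. How many of all genes split this way was not counted. Col16a1, another fibril-associated type, had 7 regions with 5 and 5 called in KrasLA1 and 7 and 4 in KrasLA1;Dicer1S2D.

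Col8a1, a short-chain collagen of vessel walls, was the 1 collagen gene with more regions called in both KrasLA1;Dicer1S2D libraries than in either KrasLA1 library, a pattern of 0.995% of all genes with a region. The counts were 2 and 2 against 3 and 3 of 4 regions. None of the 4 regions was itself gained: 2 were called in every library but KrasLA1 replicate 1, 1 in every library but KrasLA1 replicate 2, and 1 in KrasLA1 replicate 1 only. The genes without a region in this class were Col6a4, Col9a2, Col10a1, Col13a1, Col17a1 and Col19a1, among them the hypertrophic cartilage collagen Col10a1 and the hemidesmosome collagen Col17a1. With the 3 fibrillar genes named above, 9 of 42 collagens (21.4%) had no region, beside 23.1% of all autosomal protein-coding genes.

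Few collagen start sites were open. Of the 7 genes open there in every library, 4 were of the basement membrane class, but the start sites of Col4a1 and Col4a2 lay in the same region. For 33 of the 42 collagen genes a start site is listed in the RefSeq promoter table, and Col1a1, Col2a1, Col4a3, Col5a2, Col9a3, Col12a1, Col14a1, Col22a1 and Col26a1 were read at their gene ends. Of the 33, 7 (21.2%) had a start site in a peak in all 4 libraries, against 50.2% of 16457 genes, and 20 (60.6%) had it in none, against 42.4%. The 7 were Col4a1, Col4a2, Col4a4 and Col18a1 of the basement membrane class and Col6a2, Col16a1 and Col23a1 of the other types. Of the 5 listed basement membrane genes 4 were thus open in every library, and of the 8 listed fibrillar genes none was. Start sites called in some libraries were those of Col5a1, Col5a3, Col6a1, Col7a1, Col8a2 and Col27a1. Within 1 kb of the start site the number open in all 4 libraries was again 7 (53.1% of all genes), and 17 had no peak in any library.

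Over all 42 genes, 10 and 14 had a peak at the start site or gene end in KrasLA1 and 10 and 9 in KrasLA1;Dicer1S2D. These counts join 2 unlike readings, since a gene end of a single base meets a peak less easily than a promoter window. The means were 12 ± 2.83 and 9.5 ± 0.707 (SD, n = 2 each), a difference of -2.5 with an exact permutation p of 0.667. The value of 14 came from KrasLA1 replicate 2, the only library with a peak at the start sites of Col7a1 and Col8a2.

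The start sites open in every library lay in DNA rich in G and C. In the 250 bases before them the median ratio of observed to expected CpG was 0.606 (range 0.430 to 0.896, 7 genes), and it was 0.388 (range 0 to 0.812, 20 genes) where no library had a peak. Over all genes the corresponding medians were 0.761 and 0.211. The median share of G and C was 66% for the 7 and 57.4% for the 20. Of the promoters printed above, that of Col4a1 had the highest ratio of all 33, and that of Col3a1 had no CpG at all and 35.2% G and C. Col1a2 had no peak although its ratio of 0.466 and its 62% G and C lay within the range of the open ones. The ranges of the 2 sets overlapped, and this is a description over genes of the same libraries.

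**Figure D4:**
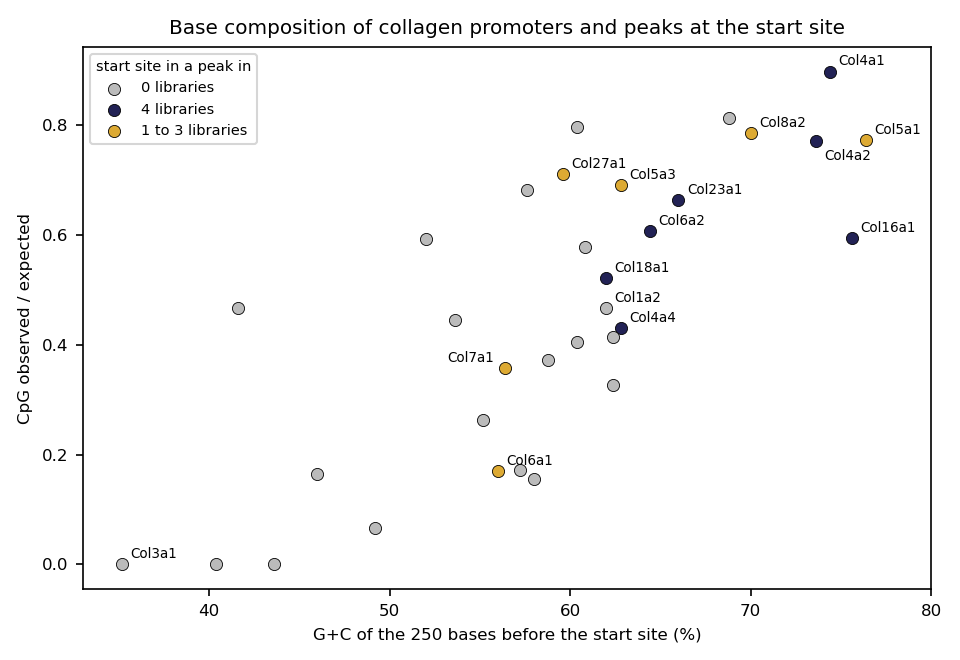
Ratio of observed to expected CpG (y axis) against the share of G and C (%, x axis) in the 250 bases before the start site of the 33 collagen genes with a listed start site. Points are genes, coloured by the number of libraries with a peak at the start site. The 7 genes open in all 4 libraries have at least 62% G and C, while Col3a1 lies at 35.2%.

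TATAAA occurred in the 250 bases before 5 of the 33 collagen start sites (15.2%, against 12.5% of all genes), CCAAT in 11 (33.3%, against 36.2%) and GGGCGG in 19 (57.6%, against 43.6%), on either strand. None of the 7 promoters open in all 4 libraries held TATAAA, 4 held CCAAT and 5 held GGGCGG. Of the 20 without a peak, 5 held TATAAA, 5 held CCAAT and 9 held GGGCGG.

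Part of the shared open chromatin near collagens belonged to neighbours. Of the 167 regions, 7 lay at the start site of another gene (Mff near Col4a3, Ogfr near Col9a3, Adprhl2 near Col8a2, Pef1 near Col16a1, Pfkfb4 near Col7a1, Phykpl near Col23a1, and Rxrb with Slc39a7 near Col11a2), and all 7 were called in all 4 libraries. Of the other 160, 48 (30%) were. Col9a3 and Col11a2 had no region but such a one.

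Peak width was the only graded value that could be compared. Among regions with exactly 1 peak in each library, 49 of 24604 were at collagen genes, and their median peak width was 590 and 662 bp in KrasLA1 and 616 and 533 bp in KrasLA1;Dicer1S2D. These values overlapped and followed the medians over all 24604 regions (585 and 685.5 bp, and 591 and 544.5 bp). With limma on log2 width centred on each library's median, 0 collagen regions passed an adjusted p of 0.05 (0.00% of all regions passed), and 0 had an unadjusted p under 0.05, against 2.91% of all. The median log2 difference was 0.07 over collagen regions and 0.04 over all, and 29 of the 49 were wider in KrasLA1;Dicer1S2D. Without centring, 15 of the 49 were wider, the medians were -0.09 and -0.12, and 3 of the 49 had an unadjusted p under 0.05, against 4.07% of all, with 0 called after adjustment. The smallest unadjusted limma p of a collagen region, 0.102, was that of the region near Col11a2, 1082 and 976 bp wide in KrasLA1 and 686 and 664 bp wide in KrasLA1;Dicer1S2D, with a log2 difference of -0.45 (SE 0.23). Next, at 0.111, came a Col18a1 region inside the gene, 194 and 220 bp wide in KrasLA1 and 225 and 294 bp wide in KrasLA1;Dicer1S2D, with a log2 difference of 0.47 (SE 0.25). Neither passed the adjusted threshold.

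**Figure D5:**
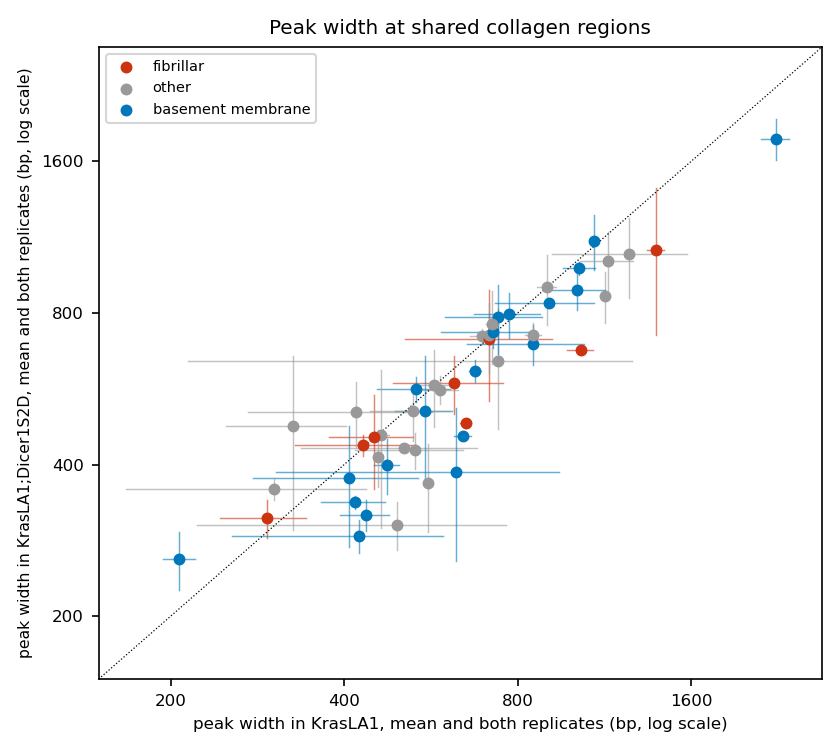
Mean peak width in KrasLA1;Dicer1S2D (bp, y axis, log scale) against KrasLA1 (bp, x axis, log scale) for the 49 collagen regions with 1 peak in each library. Points are means of 2 libraries, thin lines join the 2 replicates and the dotted line marks equal width. The widest point is the region shared by Col4a1 and Col4a2, with peaks of 2120, 2367, 1941 and 1609 bp.

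The genes that make, bind and break down collagen were counted the same way. The 31 genes of collagen synthesis and cross-linking, among them the prolyl hydroxylase P4ha1 and the chaperone Serpinh1, had 93 regions with 69 and 69 called in KrasLA1 and 75 and 55 in KrasLA1;Dicer1S2D. Of these 1 was lost, in Tll2, a procollagen-processing protease of the tolloid family. A region was present at 27 of the 31 genes. Tll1, Pcolce2 and the cross-linking genes Lox and Loxl2 had none, whereas Loxl1, Loxl3 and Loxl4 had at least 1. Of all autosomal protein-coding genes 23.1% had none. The 10 receptor genes had 46 regions with 36 and 32 called in KrasLA1 and 38 and 25 in KrasLA1;Dicer1S2D, and 1 was lost, in Mrc2, an endocytic collagen receptor. The 10 genes of collagen breakdown had 42 regions with 28 and 32 called in KrasLA1 and 35 and 21 in KrasLA1;Dicer1S2D, and 1 was lost, 5795 bp from Mmp9, which codes for a gelatinase. The lost regions of these lists stand beside 1.42% of all autosomal regions lost and 4.87% of all genes with a region that had a lost one. In each of these lists the KrasLA1;Dicer1S2D libraries held both the highest and the lowest count.

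The 15 laminins and other basement membrane partners had 76 regions with 43 and 56 called in KrasLA1 and 61 and 32 in KrasLA1;Dicer1S2D. The 1 gained region of all these lists lay 9093 bp from Lama5, a laminin chain of epithelial and vascular basement membranes, with peaks of 211 and 194 bp in KrasLA1;Dicer1S2D and none in KrasLA1. Of all autosomal regions 0.596% were gained. The 12 fibril-binding proteoglycans and glycoproteins had 21 regions with 10 and 19 called in KrasLA1 and 17 and 11 in KrasLA1;Dicer1S2D. Dcn, Lum, Ogn, Aspn and Postn of this list had no region, beside 23.1% of all autosomal protein-coding genes. The other 7 genes had at least 1, among them Sparc with 7 and Tnc with 6. The start site of Sparc lay in a peak in all 4 libraries.

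Markers of the cells that can make collagen were read beside these values, and their lost regions stand beside 1.42% of all autosomal regions lost and 4.87% of all genes with a lost region. The fibroblast and smooth muscle list had 2 lost regions, both in Acta2, which codes for smooth muscle actin. The 6 endothelial markers had 24 regions with 20 and 19 called in KrasLA1 and 17 and 14 in KrasLA1;Dicer1S2D. These counts over the whole list did not overlap. The 3.43% for fewer calls is a share of single genes, and no share was counted over lists of this size. A lost region each lay at Flt1 and Tek, while Cdh5 and Kdr had no region. The 5 leukocyte markers had 16 regions with 8 and 12 called in KrasLA1 and 11 and 6 in KrasLA1;Dicer1S2D, with 1 lost at Spi1 and no region at Cd3e. The 7 lung epithelium markers had 34 regions with 23 and 29 called in KrasLA1 and 26 and 17 in KrasLA1;Dicer1S2D, with 1 lost at Cdh1 and 1 at Nkx2-1. The part of the makeup of the tumours in the counts of Col4a2, Col8a1 and the lost regions was not tested.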

How the data were processed

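Per the file headers, the deposited table holds 5 tracks of intervals in mm10: the authors' peaks of each of 4 libraries and their merged regions. The deposited intervals carry no count, score or signal. Per the submitters' processing notes, BWA 0.7.12, MACS3 3.0.0 and deepTools 3.5.1 were used. For their roles, the peak threshold and the read numbers, nothing is given in the sources used here. No column belonged to another sample (0).

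A region was called in a library if it overlapped 1 of its peaks by 1 base or more. Merging the 4 sets of peaks gave the authors' 61972 regions. Coordinates count from 1. Gene positions and promoters (250 bases before to 50 after the start) were taken from RefSeq tables of GRCm38.p6, the assembly of mm10, and all list symbols matched.

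Group means were compared by exact two-sided permutation tests, and log2 peak width by limma 3.58.1 in R 4.3.3 with Benjamini-Hochberg adjustment over 24604 regions. Shares of single libraries have 95% Wilson intervals. Counts, tests and figures were made in Python 3.11.15 with scipy 1.17.1, numpy 2.4.6 and, for drawing, matplotlib 3.10.9. The steps were tested on simulated data. A permutation p-value ranks the observed difference among all splits of the same 4 libraries. A limma p-value uses a variance for each region that draws on all 24604 regions. Both rest on 2 mice in each group.

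The members, the gene lists and the tests were chosen with earlier results of these data known. Named genes were collagens with a gained or lost region, with call counts that did not overlap between genotypes or with no region, the 3 with the most regions in each class, the major lung collagens, and matrix genes with a gained or lost region. The values of 1 marker gene are not reported here. Other collagens that are named were chosen after their values were seen. Alternatives covered the merging of peaks, their number, the window around genes, X, the start-site window, leaving out each library in turn and a block for the replicate number.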

Additional observations from a re-analysis of the deposited data

Results flagged for a closer look

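The difference between genotypes in collagen regions called pointed in opposite directions in the 2 sexes, which are also the 2 replicate numbers. In females the KrasLA1;Dicer1S2D library had 27 more collagen regions called than the KrasLA1 library (125 against 98), and in males the difference was -33 (72 against 105). The regions called over all autosomes differed in the same directions, by 7772 in females (47840 against 40068) and by -10285 in males (33302 against 43587). With 1 mouse of each sex and genotype, the difference between the sexes was not tested.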

How the results depend on the processing

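The difference in collagen regions called was 1 with the widest 75% of peaks and ranged from -29.5 to 23.5 with each library left out. The collagen share of all regions differed by 0.00708 percentage points with the widest 75% of peaks, 0.00158 with equal numbers of the widest peaks and 0.00423 with 50 kb on each side of the gene, and by -0.0265 to 0.0186 with each library left out. The difference in covered bases ranged from -16.5 to 3.45 kb and was 0.611 kb without KrasLA1 replicate 2, and the fibrillar minus basement membrane difference ranged from -12 to 42.2 points, with each library left out. Lost regions numbered 1 with peaks up to 500 bases apart merged, with the widest 75% of peaks and with equal numbers of the widest peaks, and 19, 17, 11 and 3 without KrasLA1 replicate 1, KrasLA1 replicate 2, KrasLA1;Dicer1S2D replicate 1 and KrasLA1;Dicer1S2D replicate 2, when fewer libraries define the pattern. Gained regions numbered 1, 8, 1 and 30 in the same order. For these settings no share of all autosomal regions is given beside the counts. No permutation p reached 0.05 in any of these settings, which the design does not allow. With the replicate number as a block, the difference in collagen regions called stayed -3 (exact permutation p = 1, smallest possible 0.5), and 0 collagen regions changed in width in limma. With each library left out, 0 passed the adjusted threshold and 0 to 3 had an unadjusted p under 0.05. Same-numbered libraries had a correlation of deviations of 0.148 over 60713 regions, which from 2 pairs does not show that the numbers pair the mice. The share of collagen regions called in every library, an analysis chosen after seeing the data, ranged from 29.2% to 42.2% over the settings. That of all regions ranged from 43.1% to 50.6%. With 50 kb on each side of the gene the values were close, 42.2% of collagen regions and 43.5% of all. With a library left out, fewer libraries had to call a region. Peaks carry no depth, so differences in openness below the peak threshold were not detectable.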

Other observations

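The 2 collagen genes on the X chromosome, Col4a5 and Col4a6, which code for further type IV chains, were outside the autosomal rule. Of the 2 regions of Col4a5, 1 and 2 were called in KrasLA1 and 2 and 0 in KrasLA1;Dicer1S2D. Of the 6 regions of Col4a6, 1 and 3 were called in KrasLA1 and 6 and 1 in KrasLA1;Dicer1S2D. Both genes had their highest count, alone or tied, in KrasLA1;Dicer1S2D replicate 1, the library with the most peaks. The start site of Col4a5 lay in a peak in KrasLA1 replicate 2 only, and that of Col4a6 in none. Replicate 1 is female and replicate 2 male in each group, and the number of X chromosomes differs with sex.

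Several other types had far more calls in some libraries than in others. Of the 5 regions of Col25a1, a membrane collagen found in brain, 5 and 0 were called in KrasLA1 and 1 and 1 in KrasLA1;Dicer1S2D. Of the 5 regions of Col12a1, which binds type I fibrils, 1 and 1 were called in KrasLA1 and 5 and 1 in KrasLA1;Dicer1S2D. Col28a1 had 6 regions with 6 and 3 called in KrasLA1 and 5 and 1 in KrasLA1;Dicer1S2D, and Col6a6, a type VI chain, had 5 regions with 5 and 2 called in KrasLA1 and 5 and 1 in KrasLA1;Dicer1S2D. At these last 2 genes, as at Col14a1, the females of both genotypes had more calls than the males. The reverse held at Col4a1, with 3 and 4 calls in females and 8 and 5 in males. It also held at Col4a4, with 2 and 2 in females and 3 and 3 in males. The share of all genes with either pattern was not counted.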
